A study of Mus musculus with 13 samples.

Results

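Wnt ligands, the Frizzled and Lrp receptors that bind them, and the secreted proteins that block them were followed across the conversion of stalled mouse reprogramming intermediates. The members were chosen by symbol: 18 Wnt genes, all Frizzled genes (10), the co-receptor genes Lrp5 and Lrp6, and 10 genes of secreted antagonists (Sfrp1, Sfrp2, Sfrp4, Sfrp5, Frzb, Wif1 and the 4 Dkk genes). Together these were 40 of the 20325 genes in the files. The cells were pre-iPSCs derived from mouse embryonic fibroblasts, either with a knockout of Kdm3b (KO), a gene that encodes a histone H3 lysine 9 demethylase, or wild type (WT). How the knockout was made, and whether 1 or several clones were used, was not given in the labels. Both genotypes were sampled before AA+2i (day 0) and after 2 and 10 days of it. AA+2i is ascorbic acid at 50 µg/mL with CHIR-99021 and PD-0325901, in medium with 15% serum and LIF, with a split on day 4. Each of the 6 groups had 2 libraries, lettered A and B, and 1 further library came from wild-type V6.5 embryonic stem cells (ESCs). The day 0 libraries are titled DMSO but carry the treatment label AA+2i, as does the ESC library, so day 0 was read as untreated from title and time point and the treatment of the ESCs is uncertain.

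Wnt proteins are secreted lipid-modified ligands. In the canonical pathway a Wnt bridges a Frizzled receptor and Lrp5 or Lrp6, the destruction complex that holds GSK3 is held back, and β-catenin accumulates and acts with TCF and LEF factors at CTTTGA-type sites in target genes. Other Wnts, Wnt5a and Wnt11 among them, are best known for signalling through Frizzled without β-catenin. Sfrp proteins, Frzb and Wif1 bind Wnts outside the cell, whereas Dkk1, Dkk2 and Dkk4 bind the Lrp co-receptors. CHIR-99021 inhibits GSK3 and so acts below the ligands and receptors, and PD-0325901 inhibits MEK. Wnt and GSK3 inhibition favour self-renewal of mouse pluripotent cells.

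The libraries held 14891294 to 26430050 expected counts, so that 1 count was worth 0.0378 to 0.0672 CPM (counts-per-million, on library totals), and intervals given for low counts cover counting error only. Folds given as at least set a group at 0 counts to 3 counts. They take the counts of the other group as they stand, without its counting error. Kdm3b lay at 17.7 to 65.5 CPM in the 6 KO libraries, against 146 to 261 CPM in the 6 WT libraries. The letters did not behave alike over time. At days 0 and 2 the B library was above the A library in 25 to 29 of the 31 members tested, with a median difference between 0.645 and 0.734 on the log2 CPM scale, whereas at day 10 it was above in 12 (KO) and 13 (WT) with medians of -0.04 and -0.07. Among all genes tested the B library was above in 48.5 to 54% in the 6 groups, and transcript length moved with the difference at days 0 and 2. Genes of at least 4000 bases had a median B minus A of 0.28 to 0.46 there, and genes under 2000 bases one of -0.38 to -0.25. The part of length in the results below was not tested, and each comparison with days 0 or 2 carries this spread. All groups share 1 estimate of the spread per gene in the fit below. The spread between letters at days 0 and 2 therefore also enters the test between genotypes at day 10. The labels do not say whether A and B were separate cultures, so the p-values measure the spread between these libraries, which may be technical.

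**Figure D1:**
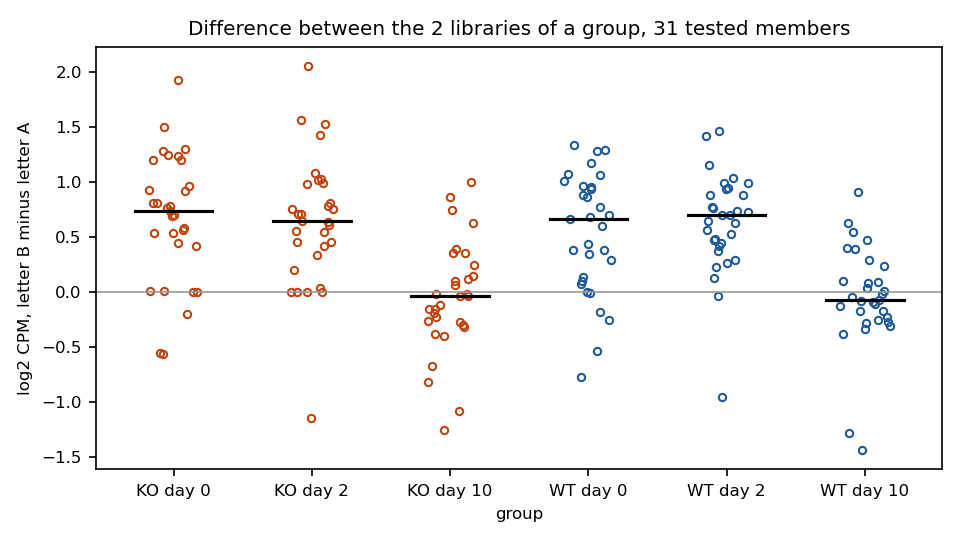
Difference between the 2 libraries of each group (letter B minus letter A, log2 CPM, vertical axis) for the 31 members tested, in KO and then WT at days 0, 2 and 10 (horizontal axis), 1 point per gene. Most points lie above 0 at days 0 and 2, with medians between 0.645 and 0.734, and spread around 0 at day 10.

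Of the 40 genes, 32 reached 1 CPM in at least 1 library: all Frizzled genes, both co-receptors, 11 of 18 ligands and 9 of 10 antagonists. Dkk2 passed only in the ESC library, with 1.69 CPM, so 31 passed in the pre-iPSCs. The receptors were broadly present. Of the 12 members at 1 CPM or more in all 13 libraries, 8 were Frizzleds, 2 were the co-receptors, 1 was a ligand (Wnt5b) and 1 an antagonist (Sfrp1). The 8 genes under 1 CPM everywhere were the ligands Wnt1, Wnt2, Wnt3a, Wnt8b, Wnt9b, Wnt10a and Wnt10b and the antagonist Dkk4; the highest value among them was 0.896 CPM, for Wnt3a in the ESC library. Members at 1 CPM or more in both libraries numbered 15, 16 and 17 in KO at days 0, 2 and 10, against 17, 17 and 21 in WT, and the single ESC library had 25.

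**Figure D2:**
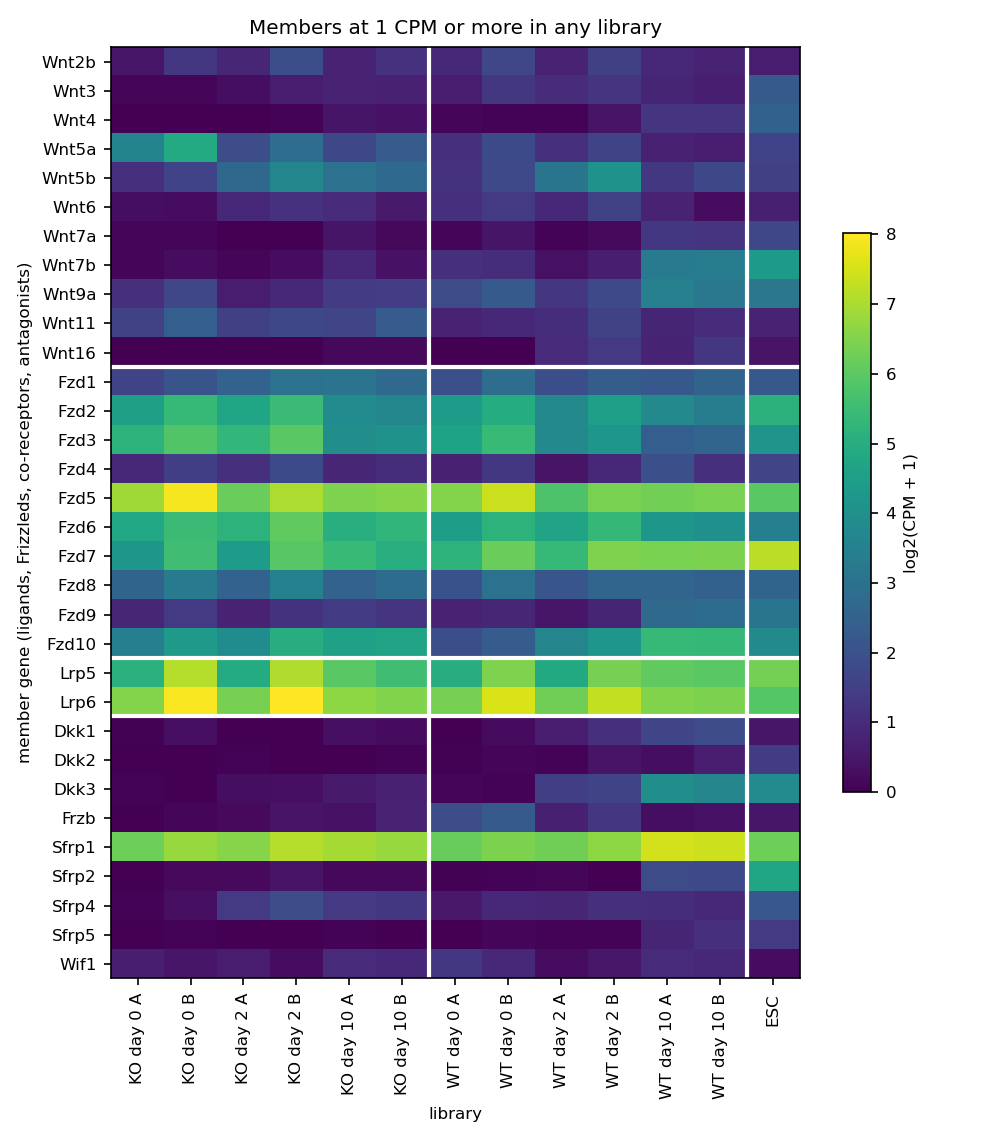
Level of the 32 members that reached 1 CPM, as log2(CPM + 1) in colour, with 1 row per gene ordered by role and 1 column per library, KO before WT before ESC. Receptor rows other than Fzd4 and Fzd9 are filled in every library, while rows such as Wnt7b, Dkk3 and Sfrp2 are filled mainly in WT at day 10 and in the ESC library.

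On the length-adjusted TPM scale, receptors and 1 antagonist dominated the family. Sfrp1, a secreted Wnt-binding protein, had 49.4 ± 4.42 TPM in KO and 75.3 ± 3.18 TPM in WT at day 10 (SD, n = 2 each). Fzd7, a receptor known from embryonic stem cells, had 14.2 ± 2.43 TPM in KO and 33.8 ± 0.0849 TPM in WT. After Sfrp1 the order of mean TPM in KO at day 10 was Fzd5 (24.4 ± 0.891), Lrp5 (19.4 ± 4.07), Lrp6 (18.7 ± 1.72), Fzd6 (15.8 ± 1.65), Fzd10 (15.1 ± 0.65) and Fzd7. In WT it was Fzd7, Fzd10 (25.8 ± 0.474), Lrp5 (23.5 ± 1.39), Fzd5 (22.4 ± 0.53) and Lrp6 (17.8 ± 0.559). Lrp5 and Lrp6 in KO, the last 3 Frizzleds in KO, and Lrp5 and Fzd5 in WT differed by less than their spread. Summed over the 18 ligands, day 10 libraries held 12.5 and 12.4 TPM in KO, against 19.6 and 19.1 TPM in WT, and the ESC library held 28.7 TPM. The antagonists summed to 56.0 and 49.8 TPM in KO at day 10, against 93.6 and 87.5 TPM in WT at day 10 and 61.5 TPM in the ESCs. Sfrp1 alone held 52.6 and 46.3 TPM of these sums in KO, 77.5 and 73.0 TPM in WT, and 27.8 TPM in the ESCs. The day 10 sums therefore mostly describe Sfrp1, whose genotype difference at day 10 missed the threshold of the test below. At days 0 and 2 the sums followed the letter: the ligands held 7.68 (A) and 24.1 (B) TPM in KO at day 0, against 5.69 (A) and 12.7 (B) TPM in WT.

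The 31 members that passed a filter on low counts were tested with all 14324 such genes in 1 fit over the pre-iPSC libraries with edgeR's quasi-likelihood test. A gene was called when its FDR, the Benjamini-Hochberg adjusted p over all genes tested, lay under 0.05. In WT at day 10 against day 0, 15 members were called, where 34.1% of all genes tested were. Of these 12 were higher, where 21% of all genes were, and 3 were lower, where 13.1% were. Their median log2 fold change was 0.09, against -0.03 over all genes. In WT at day 10 against day 2, 12 were called (29.5% of all genes), 10 of them higher (18.3%) and 2 lower (11.2%). At day 2 against day 0, 4 were called (5.3%), 4 higher (3.32%) and 0 lower (1.98%). The median log2 fold changes were 0.23 and -0.12, close to 0 over all genes in both (-0.01 and -0.0022).

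In KO at day 10 against day 0, 8 members were called (15.1% of all genes), 5 higher (9.93%) and 3 lower (5.19%), with a median log2 fold change of 0.28 against -0.01 over all genes. At day 2 against day 0 in KO, 2 were called (6.39%), 2 higher (4.02%) and 0 lower (2.37%), with medians of 0.12 and 0.01. At day 10 against day 2, 1 was called (3.1%), 0 higher (2.49%) and 1 lower (0.607%), with medians of -0.04 and -0.0045. Day 10 against day 0 fell to 2 calls without KO day 0 B or KO day 10 A, to 3 without KO day 10 B, to 4 without WT day 10 A and to 5 without KO day 0 A. The single call at day 10 against day 2 was lost without KO day 2 B, KO day 10 A, KO day 10 B or WT day 10 A, and 1 of the 2 calls at day 2 against day 0, that of Wnt5b, was lost without KO day 0 A, KO day 0 B, KO day 2 B, KO day 10 A or KO day 10 B. In WT, day 2 against day 0 fell to 1 call without WT day 0 A, WT day 0 B or WT day 2 B and to 2 without WT day 2 A, and day 10 against day 2 fell to 7 calls without WT day 2 A.

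Between genotypes at day 10, 14 members were called (32.3% of all genes), 5 higher in KO than in WT (12.4%) and 9 lower (19.9%), with a median log2 fold change of 0.04 against -0.02 over all genes. At day 0, 7 were called (8.29%), 3 higher (2.69%) and 4 lower (5.59%). The median of 0.00 there, against 0.0036 over all genes, is the value of Wnt16, which had 0 counts in both groups. At day 2, 4 were called (10.5%), 1 higher (4.29%) and 3 lower (6.16%), with medians of 0.51 and 0.02. When 1 of the day 10 libraries was left out, the day 10 count was 9 (KO A), 5 (KO B), 8 (WT A) or 6 (WT B). The day 0 count fell to 2 calls without WT day 0 A, WT day 0 B or KO day 0 B and to 4 without KO day 0 A, and the day 2 count fell to 2 without WT day 2 B or KO day 2 B. With genes at 0 counts in a group set to their bound and genes at or under 3 counts in both groups left out, the medians were 0.27 (day 0), 0.53 (day 2) and 0.04 (day 10) between genotypes, -0.17 for WT day 2 against day 0, and 0.22, 0.40 and -0.10 for KO at day 2 against day 0, day 10 against day 0 and day 10 against day 2. The interaction of genotype with day 10 was called in 4 members (12.6% of all genes), 2 positive (6.35%) and 2 negative (6.2%). With day 2 it was called in 0 by edgeR (0.195%, with 0.126% positive and 0.0698% negative), where 8 members had an unadjusted p under 0.05; DESeq2 called 2. The counts at days 0 and 2 depended on how the library letter (A or B) was treated. With the letter as a block at those days only, a setting chosen after seeing the data, members called numbered 17 at day 0 and 20 at day 2 between genotypes, and 12 in KO and 12 in WT at day 2 against day 0. No share of all genes is given for these blocked counts, nor for the 8 members and the DESeq2 calls above. Such counts cannot be read as results about the members. The KO against WT comparison at day 10 and the WT time comparisons share the WT day 10 libraries. With only the compared groups fitted, every member call between genotypes at days 0 and 2 was lost. So was every member call at day 2 against day 0 in KO and in WT, and that in KO at day 10 against day 2.

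Markers of other cells and of pluripotency moved in the same day 10 comparisons. In WT at day 10 against day 0, 7 of 10 pluripotency genes tested were called higher and 2 lower. Of the markers tested, 6 of 9 fibroblast, 3 of 5 primitive endoderm and 4 of 4 trophectoderm markers were called higher. In contrast 4 of 5 neural markers and 1 of 3 endothelial markers were called lower. Of all genes tested, 21% were called higher and 13.1% lower there. The 10 pluripotency genes summed to 3596 to 4383 CPM in KO at day 10 and 5100 to 5759 CPM in WT at day 10. They did not go 1 way: Nanog had 32.8 and 31.0 CPM in KO, against 298 and 331 CPM in WT, while Pou5f1 had 2510 and 3185 CPM in KO, against 1265 and 1387 CPM in WT, and Klf4 622 and 824 CPM in KO, against 356 and 318 CPM in WT. The fibroblast markers summed to 55.2 to 71.7 CPM in KO at day 10 and 96.9 to 131 CPM in WT at day 10. Fbn1 alone held 65.0 and 51.0 CPM in KO, against 20.3 and 27.8 CPM in WT, and the other 9 summed to 6.69 and 4.18 CPM in KO, against 76.6 and 104 CPM in WT. The marker Lum was at 0 in all 6 pre-iPSC groups. Trophectoderm markers summed to 4.18 to 5.62 CPM in KO and 40.8 to 46.6 CPM in WT, primitive endoderm markers to 503 to 556 CPM in KO and 764 to 871 CPM in WT, and neural markers to 502 to 514 CPM in KO and 103 to 120 CPM in WT, all at day 10. Without Sparc the endoderm markers summed to 2.87 and 2.30 CPM in KO, against 7.83 and 7.28 CPM in WT. Endothelial markers summed to 25.8 to 30.6 CPM in KO and 10.7 to 11.3 CPM in WT, and immune markers to 7.37 to 10.5 CPM in KO and 18.3 to 21.4 CPM in WT, with Ptprc at 0 in both. Tek carried most of the endothelial sums and Cd68 most of the immune sums. Sox17 (endoderm) and Elf5 (trophectoderm) were at 0 in KO at day 10. In KO against WT at day 10, 7 of 10 pluripotency, 6 of 9 fibroblast, 2 of 5 primitive endoderm and 3 of 4 trophectoderm markers were called lower. Among the others, 3 of 5 neural markers and 1 of 3 endothelial markers were called higher. Of all genes tested, 19.9% were called lower and 12.4% higher. The markers moved beside the Wnt genes in these libraries. Their part in the results on the Wnt genes was not tested, and in these bulk libraries fewer cells of a type and less RNA per cell cannot be told apart.

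The start regions of the members were read from RefSeq promoter windows (GRCm38.p6, 250 bases before to 50 after a start), which held 30 windows for 27 of the 40 genes. The TCF/LEF core CTTTGA, searched on both strands (TCAAAG on the other), was in 5 of the 30 windows (16.7%), against 5257 of 32851 windows of all genes (16%). The member windows were richer in CpG, with a median of 25.5 against 7 over all windows. The 4 windows below belong to members that changed in at least 1 comparison and hold the core, shown in capitals, so that the letters can be set beside the values that follow. A match is a description of letters, not of binding.
Frzb, chr2:80447347-80447646, minus strand, 20 CpG: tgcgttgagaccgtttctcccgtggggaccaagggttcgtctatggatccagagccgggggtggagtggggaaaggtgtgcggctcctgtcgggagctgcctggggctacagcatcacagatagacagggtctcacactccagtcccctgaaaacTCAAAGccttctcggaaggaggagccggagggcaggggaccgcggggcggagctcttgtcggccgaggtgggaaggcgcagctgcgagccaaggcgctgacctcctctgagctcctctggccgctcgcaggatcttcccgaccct
Wnt5b, 1 of its 3 windows, chr6:119449337-119449636, minus strand, 7 CpG: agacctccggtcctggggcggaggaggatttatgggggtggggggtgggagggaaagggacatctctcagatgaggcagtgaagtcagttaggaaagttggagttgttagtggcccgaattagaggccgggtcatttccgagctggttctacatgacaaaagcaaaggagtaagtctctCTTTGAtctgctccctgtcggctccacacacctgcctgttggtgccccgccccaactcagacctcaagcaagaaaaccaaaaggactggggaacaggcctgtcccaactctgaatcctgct
Wnt11, 1 of its 2 windows, chr7:98834862-98835161, plus strand, 45 CpG: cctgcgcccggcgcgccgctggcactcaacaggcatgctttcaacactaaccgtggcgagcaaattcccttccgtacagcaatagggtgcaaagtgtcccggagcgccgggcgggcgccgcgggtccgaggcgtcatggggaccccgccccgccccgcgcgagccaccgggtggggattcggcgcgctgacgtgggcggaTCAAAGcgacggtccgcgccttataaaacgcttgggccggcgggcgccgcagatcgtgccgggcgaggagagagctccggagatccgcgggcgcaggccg
Dkk1, chr19:30549447-30549746, minus strand, 9 CpG: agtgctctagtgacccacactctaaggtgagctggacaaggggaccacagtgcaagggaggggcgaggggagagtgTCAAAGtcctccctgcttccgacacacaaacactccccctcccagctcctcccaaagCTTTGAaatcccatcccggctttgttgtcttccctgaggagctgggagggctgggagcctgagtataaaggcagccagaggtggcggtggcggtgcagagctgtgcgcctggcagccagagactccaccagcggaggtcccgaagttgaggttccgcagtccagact
The cores lie 95 bases before the start in Frzb, 71 in Wnt5b and 50 in Wnt11, and Dkk1 holds 2 of them. The 4 genes went different ways in WT, as given below: Dkk1 rose and Frzb fell by day 10, Wnt5b was high at day 2, and Wnt11 was called in no WT time comparison.

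Among the ligands, Wnt5a stood out in KO cells before treatment. Wnt5a had 11.3 and 29.1 CPM in KO at day 0, 2.69 and 6.31 on day 2, and 2.31 and 3.94 on day 10, against 1.14 and 2.49, 1.11 and 2.12, and 0.661 and 0.517 CPM in WT at the same days, and 2.09 CPM in the ESCs. On each day both KO libraries were above both WT libraries. The log2 fold change of KO over WT was 3.54 at day 0 (SE 0.600, FDR = 0.00768) and 2.43 on day 10 (SE 0.670, FDR = 0.0225), and at day 2 it was 1.52 and missed the threshold (FDR = 0.160). Leaving out WT day 0 A ended the day 0 call (3.09), which was kept at 2.74 without KO day 0 B and at 4.14 without WT day 0 B, and the day 10 value missed the threshold without WT day 10 A, WT day 10 B or KO day 10 B (2.03 to 2.65). With only the compared groups fitted, the day 0 genotype call was lost (3.56, FDR = 0.0758). Within KO, Wnt5a fell by day 10 (log2 fold change against day 0 -2.73, SE 0.578, FDR = 0.0142), a call lost without KO day 0 B, KO day 10 A or KO day 10 B (-3.14 to -1.94).

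Wnt5b, a close relative of Wnt5a, had a peak at day 2 in WT. It had 1.12 and 2.04 CPM in KO at day 0, 5.52 and 11.95 on day 2, and 6.998 and 5.75 on day 10. In WT Wnt5b had 1.25 and 2.44, 7.69 and 16.1, and 1.49 and 2.33 CPM on those days. In both genotypes the day 2 libraries lay above the day 0 libraries, and at day 10 both KO libraries lay above both WT libraries. In WT Wnt5b rose by day 2 (log2 fold change 2.66, SE 0.505, FDR = 0.0190) and was lower again at day 10 than at day 2 (-2.65, SE 0.511, FDR = 0.004998). In KO it rose by day 2 (2.44, SE 0.510, FDR = 0.0240) and was above day 0 at day 10 (1.96, SE 0.508, FDR = 0.0323). At day 10 KO exceeded WT by 1.79 (SE 0.508, FDR = 0.0256), while the interaction of genotype with day 10 missed the threshold (1.95, FDR = 0.122). Single libraries carried these calls. The rise by day 2 was lost in WT without WT day 0 A, WT day 0 B or WT day 2 B (2.09 to 3.16), and in KO without KO day 0 A, KO day 0 B, KO day 2 B, KO day 10 A or KO day 10 B (1.82 to 2.88). The WT difference between days 10 and 2 was lost without WT day 10 A (-2.38), the KO difference between days 10 and 0 without WT day 10 A and on leaving out each of its 4 libraries (1.64 to 2.42), and the genotype difference on leaving out each of its 4 libraries (1.52 to 2.15).

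A set of ligands was low until day 10 and then high in WT. Wnt7b, a canonical ligand of epithelia and trophoblast, had 0.0898 and 0.199 CPM in KO at day 0, 0.0959 and 0.202 on day 2, and 0.875 and 0.303 on day 10. In WT Wnt7b had 1.14 and 1.09, 0.290 and 0.579, and 9.09 and 9.51 CPM on those days, and the ESC library had 19.6 CPM. Both WT day 10 libraries lay far above the other pre-iPSC libraries. The log2 fold change of WT day 10 was 2.99 over day 0 (SE 0.436, FDR = 0.000994) and 4.38 over day 2 (FDR = 0.000383), and that of KO over WT at day 10 was -3.93 (SE 0.478, FDR = 0.000518). All 3 calls held with each library left out in turn, the genotype value being -4.86 on leaving out KO day 10 A and -3.32 on leaving out KO day 10 B. KO was also lower at day 0 (-2.87, SE 0.583, FDR = 0.0173), a call lost on leaving out each of the 4 libraries compared (-3.47 to -2.45). The interaction with day 10 missed the threshold for Wnt7b (-1.05, FDR = 0.524).

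Wnt9a followed a similar course at a higher starting level. It had 1.17 and 2.23 CPM in KO at day 0, 0.576 and 0.873 on day 2, and 1.69 and 1.76 on day 10. In WT Wnt9a had 2.61 and 3.79, 1.40 and 2.41, and 10.1 and 8.28 CPM on those days. The WT day 10 libraries were close to the 8.12 CPM of the ESC library. WT day 10 exceeded day 2 by 2.25 (FDR = 0.00192) and day 0 by 1.48 (SE 0.342, FDR = 0.00959), the day 0 call being lost if WT day 0 A (1.26) or WT day 10 A (1.31) was left out. KO was lower than WT at day 10 (log2 fold change -2.37, SE 0.363, FDR = 0.00152), without dependence on any single library.

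Wnt4, Wnt7a and Wnt16 stayed under 1.5 CPM in all pre-iPSC libraries. Wnt4, which acts in kidney and gonad development, had 0 and 0 CPM in KO at day 0, 0 and 0.0672 on day 2, and 0.375 and 0.303 on day 10. In WT Wnt4 had 0.0757 and 0.0519, 0.0484 and 0.338, and 1.38 and 1.29 CPM on those days. Its 45 counts in WT at day 10 against 3 at day 0 gave a ratio of 20.4 (95% counting interval 6.55 to 103, FDR = 0.00440). In KO, 11 counts at day 10 against 0 at day 0 made it at least 4.78-fold higher, with the empty day 0 group set to a floor of 3 counts in all (FDR = 0.0351), a call lost on leaving out each day 0 or day 10 library of either genotype. WT day 10 exceeded day 2 by 2.74 (FDR = 0.0170), lost without WT day 2 A, WT day 10 A or WT day 10 B (1.96 to 2.77) and kept at 4.53 without WT day 2 B.

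Wnt7a, a ligand of limb and neural development, had 0.375 and 0.121 CPM in KO at day 10, against 1.49 and 1.29 CPM in WT at day 10 and 0.0757 and 0.363 CPM in WT at day 0. The log2 fold change was 2.68 for WT day 10 over day 0 (SE 0.650, FDR = 0.0145), 3.74 over day 2 (FDR = 0.00706) and -2.42 for KO over WT at day 10 (SE 0.665, FDR = 0.0261). Each was lost without at least 1 library: the first without WT day 0 A, WT day 10 A or WT day 10 B (1.90 to 2.76; 3.97 without WT day 0 B, where it was kept), the second without WT day 2 A (3.20; 4.59 and kept without WT day 2 B), and the genotype difference on leaving out each of its 4 libraries (-3.40 to -1.80) and with DESeq2 (-2.49, FDR = 0.0544).

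Wnt16 was the 1 ligand absent from all 4 day 0 libraries among those tested. It had 0 CPM in KO at days 0 and 2 and 0.125 and 0.121 at day 10, against 0 and 0 CPM in WT at day 0, 0.968 and 1.496 on day 2, and 0.717 and 1.42 on day 10. On the same floor for the WT day 0 group, which held 0 counts, WT was at least 18.8-fold higher at day 2 (51 counts, FDR = 0.0140) and at least 15.9-fold higher at day 10 (35 counts, FDR = 0.00299). At day 2 KO was at least 14.7-fold lower than WT (0 against 51 counts, FDR = 0.00937), and at day 10 the log2 fold change was -3.00 (SE 0.651, FDR = 0.0172). The WT day 2 call was lost on leaving out each of its 4 libraries, the KO call at day 2 without WT day 2 B, and that at day 10 without WT day 10 B, KO day 10 A or KO day 10 B (-3.01 to -2.43).

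Wnt3 and Wnt6 were lower, and Wnt11 higher, in KO at day 0. Wnt3, a canonical ligand required for gastrulation in the mouse, had 0.0898 and 0.0993 CPM in KO at day 0, 0.240 and 0.537 on day 2, and 0.687 and 0.666 on day 10. In WT Wnt3 had 0.530 and 1.45, 1.02 and 1.30, and 0.772 and 0.582 CPM on those days. The genotypes did not overlap at day 0 and overlapped at day 10. The log2 fold change of KO over WT at day 0 was -3.21 (SE 0.628, FDR = 0.0148), lost without WT day 0 B, KO day 0 A or KO day 0 B (-3.26 to -2.41), and that of KO day 10 over day 0 was 2.70 (SE 0.664, FDR = 0.0265), lost without WT day 2 B, WT day 10 A or on leaving out each of its own 4 libraries (2.68 to 2.75).

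Wnt11, a ligand of cell movement in gastrulation, had 2.02 and 4.27 CPM in KO at day 0, 1.87 and 2.35 on day 2, and 2.19 and 4.06 on day 10. In WT Wnt11 had 0.757 and 0.883, 1.06 and 1.98, and 0.772 and 1.03 CPM on those days. KO was above WT by 1.97 at day 0 (SE 0.462, FDR = 0.0331) and 1.84 on day 10 (SE 0.474, FDR = 0.0168) on the log2 scale, and by 0.55 at day 2, where the groups overlapped (FDR = 0.609). Leaving out any of 5 libraries ended the day 0 call, namely WT day 0 A, WT day 0 B, WT day 10 A, WT day 10 B or KO day 0 B (1.38 to 2.04), as did scaling by library totals (1.93, FDR = 0.0536). Without 1 of 3 libraries the day 10 call was lost: WT day 10 A, WT day 10 B or KO day 10 B (1.35 to 2.06). Wnt6 had 0.224 and 0.199 CPM in KO at day 0, against 1.14 and 1.56 CPM in WT (log2 fold change -2.56, SE 0.641, FDR = 0.0419), a call lost on leaving out each of 9 libraries (-2.75 to -2.38), with library totals (FDR = 0.0522) and without the filter on low counts (FDR = 0.0502). Wnt2b, at 0.404 to 2.82 CPM in all 13 libraries, was called nowhere (lowest FDR 0.376).

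**Figure D3:**
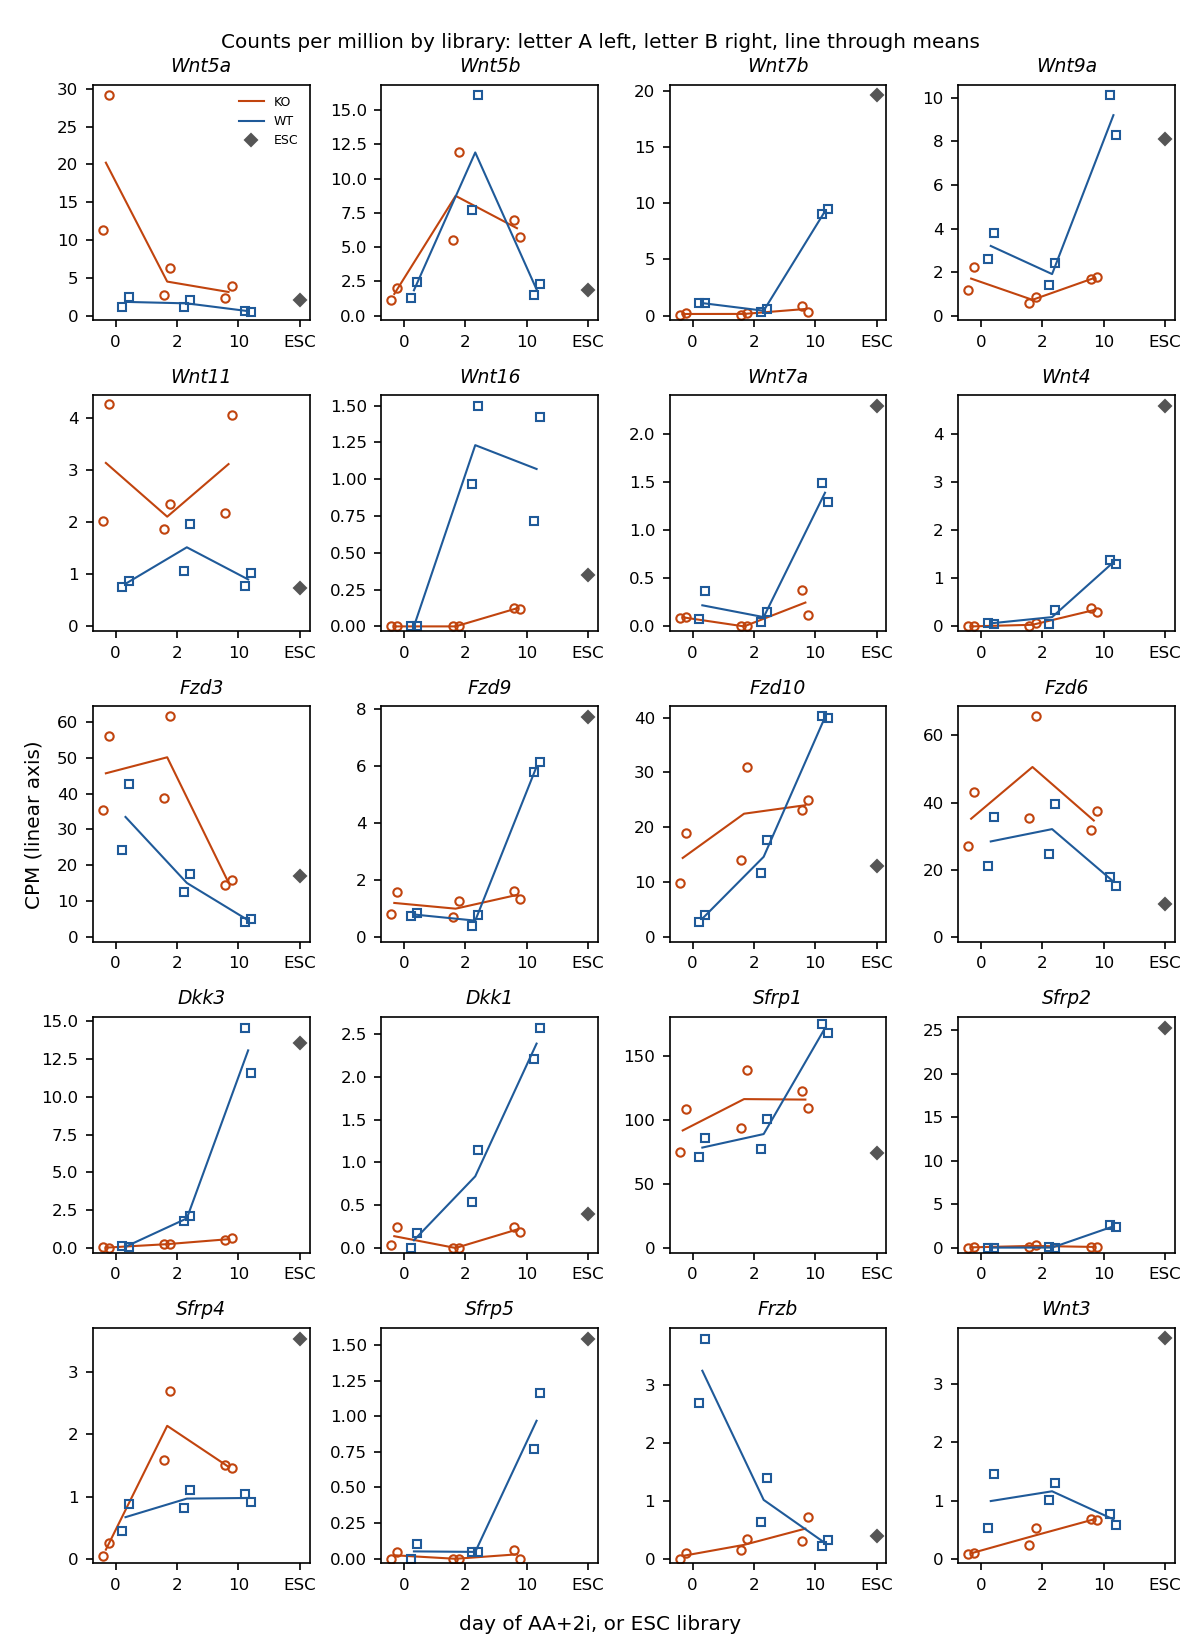
CPM (linear axis from 0) of members with calls by day of AA+2i, 1 panel per gene, with each library as a point and the mean of each group joined by lines for KO and WT, and the ESC library at the right. Wnt5a is high in KO at day 0, Wnt7b, Wnt9a and Dkk3 are high in WT at day 10, and Fzd3 lies higher in KO than in WT at days 2 and 10.

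The Frizzleds, seven-pass receptors that bind Wnts through a cysteine-rich domain, divided into 5 that were called in at least 1 comparison and 5 that were called in none. Fzd10 had 9.92 and 18.9 CPM in KO at day 0, 14.0 and 31.0 on day 2, and 23.1 and 25.0 on day 10. In WT Fzd10 had 2.76 and 4.00, 11.7 and 17.6, and 40.2 and 39.9 CPM on those days, and the ESC library had 12.9 CPM. In WT each day lay above the one before with no overlap, while the KO day 2 libraries overlapped those of both other days. In WT Fzd10 rose by day 2 (log2 fold change 2.08, SE 0.392, FDR = 0.0188) and by day 10 (3.52 against day 0, SE 0.409, FDR = 0.000320; 1.44 against day 2, FDR = 0.0190). In KO the difference between days 10 and 0 was 0.69 and missed the threshold (FDR = 0.270). KO exceeded WT by 2.14 at day 0 (SE 0.393, FDR = 0.0111), lost without WT day 0 A, WT day 0 B or KO day 0 B (1.64 to 2.38), and the value at day 10 was -0.69 (FDR = 0.196). The WT calls at day 2 against day 0 (1.80 to 2.32) and day 10 against day 2 (1.18 to 1.70) were lost on leaving out each of the 4 libraries compared.

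Fzd3, known for axon guidance and planar polarity, was lower at day 10 than at days 0 and 2 in both genotypes. It was higher in KO than in WT at days 2 and 10. It had 35.3 and 56.0 CPM in KO at day 0, 38.7 and 61.5 on day 2, and 14.4 and 15.9 on day 10. In WT Fzd3 had 24.4 and 42.6, 12.6 and 17.7, and 4.26 and 5.18 CPM on those days. At days 2 and 10 every KO library was above every WT library of that day. At day 10 against day 0 the log2 fold change was -1.64 in KO (SE 0.306, FDR = 0.00781) and -2.87 in WT (SE 0.326, FDR = 0.000285), and the interaction missed the threshold (1.23, FDR = 0.103). Against day 2 it was -1.76 in KO (SE 0.307, FDR = 0.0209) and -1.70 in WT (FDR = 0.00424). KO exceeded WT by 1.79 at day 2 (SE 0.306, FDR = 0.00657) and 1.74 on day 10 (SE 0.318, FDR = 0.00351). The WT time differences and the day 10 genotype difference held with each library left out in turn. The KO fall from day 0 was lost without KO day 0 B, KO day 10 A or KO day 10 B (-1.69 to -1.30), that from day 2 without WT day 10 A, KO day 2 B, KO day 10 A or KO day 10 B (-1.80 to -1.41), and the day 2 genotype difference without WT day 2 A (1.62) or KO day 2 B (1.45).

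Fzd9, a receptor expressed in neural tissue, rose by day 10 in WT. It had 0.808 and 1.59 CPM in KO at day 0, 0.719 and 1.28 on day 2, and 1.62 and 1.33 on day 10. In WT Fzd9 had 0.757 and 0.831, 0.387 and 0.772, and 5.79 and 6.14 CPM on those days, and the ESC library had 7.72 CPM. WT day 10 exceeded day 0 by 2.84 (SE 0.399, FDR = 0.000827) and day 2 by 3.33 (FDR = 0.000645), both without dependence on 1 library. KO was lower than WT at day 10 (-1.96, SE 0.384, FDR = 0.00481), a call lost without KO day 10 B (-1.79).

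Fzd2 fell by day 10 in both genotypes and Fzd6 differed between them. Fzd2 had 13.6 and 11.8 CPM at day 10 and 22.3 and 40.6 CPM at day 0 in KO, and 12.6 and 9.51 CPM at day 10 and 20.3 and 30.4 CPM at day 0 in WT. The log2 fold change was -1.36 in KO (SE 0.356, FDR = 0.0343) and -1.24 in WT (SE 0.356, FDR = 0.0247). The KO call was lost on leaving out each of 7 libraries, all 4 day 0 and day 10 WT libraries, KO day 0 B and both KO day 10 libraries (-1.46 to -0.89) and with scaling by library totals (-1.31, FDR = 0.0715). The WT call was lost without WT day 0 B, WT day 10 A or WT day 10 B (-1.48 to -1.0015) and with scaling by library totals (-1.20, FDR = 0.0548). Fzd6 had 31.9 and 37.5 CPM in KO, against 17.9 and 15.1 CPM in WT, at day 10. That difference of 1.12 on the log2 scale (SE 0.340, FDR = 0.0341) was lost on leaving out each of its 4 libraries (1.01 to 1.27) and with library totals (1.07, FDR = 0.0736).

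The other 5 Frizzleds were called in none of the 11 comparisons. Fzd7 had the largest genotype difference among them at day 10, with 41.0 and 32.6 CPM in KO and 84.4 and 85.7 CPM in WT at day 10. Its libraries did not overlap there, yet the log2 fold change of -1.16 missed the threshold (FDR = 0.162), and the ESC library held 144 CPM. The letters of Fzd7 lay far apart earlier, at 17.8 and 46.2 CPM in KO and 35.0 and 71.2 CPM in WT at day 0. At day 2 they lay at 20.6 and 60.4 CPM in KO and 40.3 and 86.9 CPM in WT. That spread enters the day 10 test, and its part in the missed threshold was not tested. Fzd5 lay at 53.7 to 241 CPM over the 13 libraries (lowest FDR 0.102), Fzd1 at 2.16 to 7.498 CPM (0.0653), Fzd4 at 0.339 to 2.87 CPM (0.0860) and Fzd8 at 3.06 to 10.6 CPM (0.306).

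The co-receptors Lrp5 and Lrp6, which phosphorylation couples to Axin, were called nowhere, and their values followed the letter at days 0 and 2. Lrp6 had 91.1 and 245 CPM in KO at day 0, 82.4 and 258 on day 2, and 100.2 and 89.3 on day 10, against 82.0 and 190 CPM, 77.2 and 154 CPM and 88.7 and 86.5 CPM in WT, and 58.2 CPM in the ESCs. In each day 0 and day 2 group the B library was far above the A library, and at day 10 it was not. The log2 fold change at day 10 against day 0 was -0.86 in KO (FDR = 0.406) and -0.67 in WT (FDR = 0.442). For Lrp5, with 28.3 to 139 CPM over the 13 libraries, the same values were -0.70 in KO (FDR = 0.655) and 0.09 in WT. The spread between the letters bounds what could be detected here, and the missed threshold does not show that the levels were alike.

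Among the antagonists, Dkk3 had the lowest FDR in WT at day 10 against day 0. Dkk3, a divergent Dickkopf protein that unlike Dkk1 is not known as an Lrp blocker, had 0.0449 and 0 CPM in KO at day 0, 0.240 and 0.269 on day 2, and 0.4998 and 0.666 on day 10. In WT Dkk3 had 0.114 and 0.0519, 1.79 and 2.12, and 14.5 and 11.6 CPM on those days, and the ESC library had 13.5 CPM. Every later day lay above the earlier one in both genotypes, at levels under 1 CPM in all KO libraries. In WT the log2 fold change against day 0 was 4.35 at day 2 (SE 0.483, FDR = 0.00209) and 7.06 on day 10 (SE 0.470, FDR = 3.18e-05). In KO, 19 counts at day 10 against 1 at day 0 gave a ratio of 24.8 (95% counting interval 3.94 to 1030, FDR = 0.00430). KO was lower than WT at day 2 (-2.84, SE 0.429, FDR = 0.00371) and day 10 (-4.42, SE 0.384, FDR = 0.000130). These calls held with each library left out in turn, although without WT day 0 A the WT values were 5.08 at day 2 and 7.78 at day 10. With only the compared groups fitted, the WT call at day 2 (FDR = 0.0503) and the genotype call at day 2 (FDR = 0.0623) were lost. The interaction with day 10 missed the threshold (-2.82, FDR = 0.445).

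Dkk1, a secreted blocker of Lrp5 and Lrp6 and a known β-catenin target, rose in WT at far lower levels. It had 0.0292 and 0.247 CPM in KO at day 0, 0 and 0 on day 2, and 0.250 and 0.182 on day 10. In WT Dkk1 had 0 and 0.180, 0.532 and 1.14, and 2.20 and 2.57 CPM on those days. WT day 10 exceeded day 0 by 4.96 (SE 0.880, FDR = 0.00359). The call held with each library left out in turn, but its size did not: it was 3.86 on leaving out WT day 0 A and 8.46 on leaving out WT day 0 B, where the other day 0 library held 0 counts and the value is no bound. At day 10 KO was lower (-3.39, SE 0.781, FDR = 0.0126), lost on leaving out each of the 4 libraries (-3.62 to -3.15). At day 2, KO with 0 counts was at least 9.98-fold lower than WT with 34.7 (FDR = 0.0261), lost on leaving out WT day 2 B or each KO day 2, KO day 10 or WT day 10 library.

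The Sfrp genes, whose products carry a Frizzled-like Wnt-binding domain, differed in course. Sfrp1 had 75.0 and 109 CPM in KO at day 0, 93.7 and 139 on day 2, and 123 and 110 on day 10. In WT Sfrp1 had 70.9 and 86.2, 77.5 and 101, and 176 and 168 CPM on those days. In WT it rose by day 10 (1.08 against day 0, SE 0.212, FDR = 0.00443; 0.93 against day 2, FDR = 0.0107), lost without WT day 0 A (0.98) for day 0, and without WT day 2 A, WT day 10 A or WT day 10 B (0.76 to 0.95) for day 2. KO against WT at day 10 was -0.52 (FDR = 0.0930), although the libraries did not overlap. The spread between the letters at days 0 and 2 enters that test too, and its part was not tested.

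Sfrp2 and Sfrp5 were near 0 until day 10 of WT. Sfrp2 had 0.125 and 0.121 CPM in KO at day 10, against 2.59 and 2.39 CPM in WT at day 10, with 0 to 0.336 CPM in the other 8 pre-iPSC libraries and 25.3 CPM in the ESCs. Its 84 counts in WT at day 10 against 2 at day 0 gave a ratio of 57.1 (95% counting interval 15.3 to 479, FDR = 0.00116), and KO over WT at day 10 was -4.22 on the log2 scale (SE 0.766, FDR = 0.00335); both held with each library left out in turn. Sfrp5 had 0.0625 and 0 CPM in KO at day 10, against 0.772 and 1.16 CPM in WT. The ratio of WT day 10 to day 0 was 21.8 (5.55 to 187, 32 against 2 counts, FDR = 0.00901), lost without WT day 0 A or WT day 10 B, and that of KO to WT at day 10 was 0.0323 (0.000793 to 0.193, 1 against 32 counts, FDR = 0.0112), lost without WT day 10 B or KO day 10 B.

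Sfrp4 rose in KO, not in WT by the test. It had 0.0449 and 0.248 CPM in KO at day 0, 1.58 and 2.69 on day 2, and 1.4995 and 1.45 on day 10. In WT Sfrp4 had 0.454 and 0.883, 0.823 and 1.11, and 1.05 and 0.906 CPM on those days. The KO log2 fold change against day 0 was 3.82 at day 2 (SE 0.574, FDR = 0.00538) and 3.26 on day 10 (SE 0.587, FDR = 0.00669). Both calls held with each library left out in turn, with values of 3.09 and 2.53 on leaving out KO day 0 A, and of 5.31 and 4.78 on leaving out KO day 0 B. With only the compared groups fitted, the day 2 call was lost (3.82, FDR = 0.16). The WT value at day 10 was 0.52 (FDR = 0.469). The interaction with day 10 missed the threshold (2.74, FDR = 0.0523), so a difference between the genotypes in this rise was not called.

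Frzb, also called Sfrp3, ran the other way in WT. It had 0 and 0.0993 CPM in KO at day 0, 0.144 and 0.336 on day 2, and 0.312 and 0.727 on day 10. In WT Frzb had 2.69 and 3.79, 0.629 and 1.40, and 0.221 and 0.323 CPM on those days. At day 0 the KO libraries held 2 counts and the WT libraries 144, a ratio of 0.0150 (95% counting interval 0.00179 to 0.0550, FDR = 0.00270), and in WT Frzb fell by day 10 (-3.60, SE 0.646, FDR = 0.00278). Both calls held with each library left out in turn, although the fitted genotype difference of -5.86 was -4.92 on leaving out KO day 0 A and -8.96 on leaving out KO day 0 B, where the other KO library held 0 counts and the value is no bound. With only the compared groups fitted, the genotype call was lost (FDR = 0.0572). Wif1, which binds Wnts outside the cell, lay at 0.194 to 1.44 CPM in all 13 libraries and was called nowhere (lowest FDR 0.0680). Dkk2 was at 0 to 0.517 CPM in the pre-iPSCs and Dkk4 stayed at or under 0.0903 CPM in every library, and neither was tested.

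**Figure D4:**
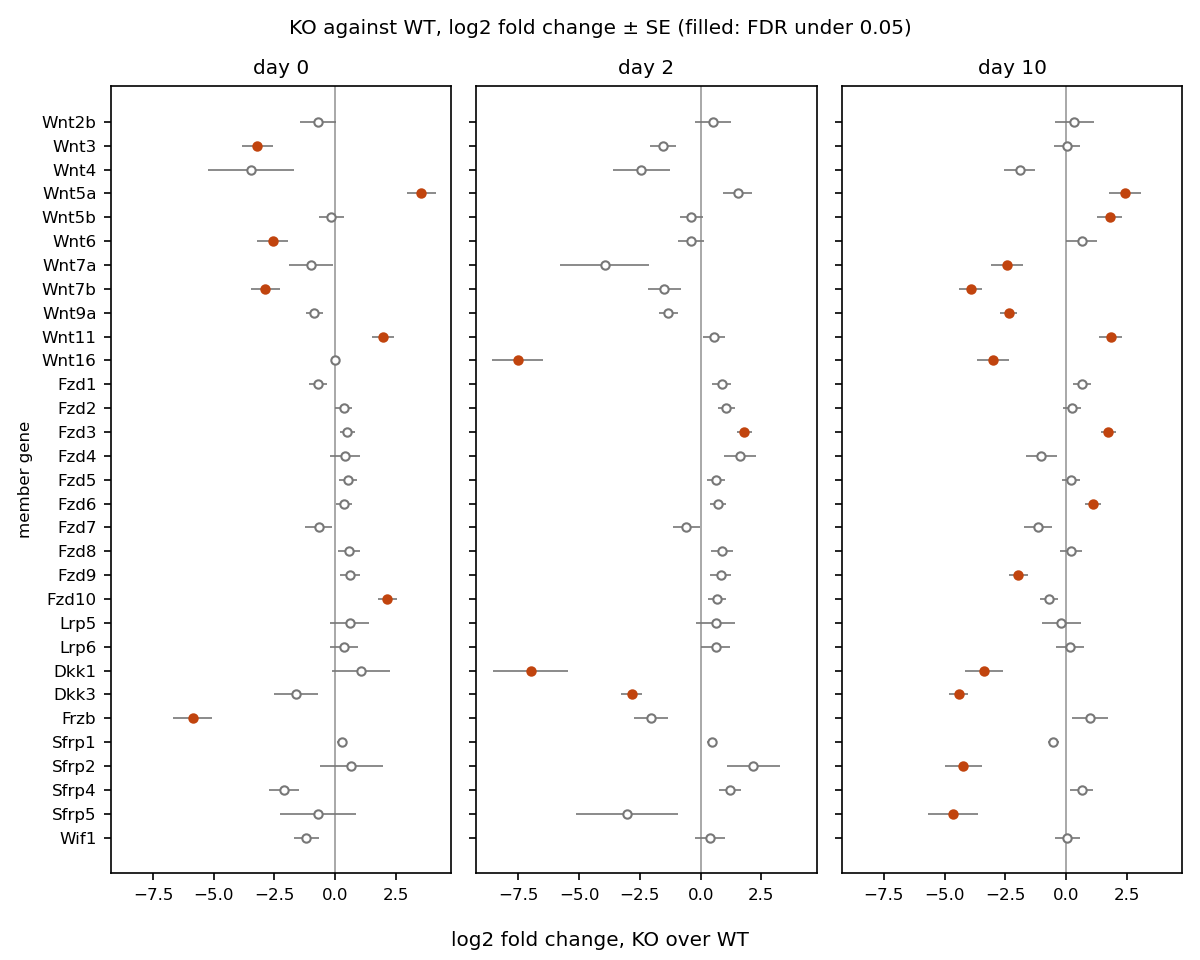
Log2 fold change of KO over WT (horizontal axis, bars are 1 SE) for the tested members at days 0, 2 and 10, with filled points for an FDR under 0.05. At day 10 Dkk3, Sfrp2, Wnt7b and Wnt9a are among those to the left, and Wnt5a, Wnt11, Wnt5b, Fzd3 and Fzd6 are the 5 filled points to the right; the points of Wnt16 and Dkk1 at day 2 are fitted against 0 counts in KO and are no bound.

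By role, the ligands gave 5 higher and 0 lower of 11 tested in WT at day 10 against day 0, the Frizzleds 2 and 2 of 10, the co-receptors 0 of 2 and the antagonists 5 and 1 of 8, where 21% of all genes were called higher and 13.1% lower. In KO against WT at day 10, the ligands gave 3 higher and 4 lower, the Frizzleds 2 and 1, the co-receptors 0, and the antagonists 0 higher and 4 lower, where 12.4% of all genes were called higher and 19.9% lower. The Frizzled counts lay near these shares. The median log2 fold change of the antagonists was -1.95 in that comparison and 2.63 in WT at day 10 against day 0. The genes tested were those that passed the filter on low counts, which a gene can pass through its level in 1 group, so these medians describe those genes only.

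The ESC library gives a reference point without a test. Its fibroblast markers summed to 274 CPM, above every pre-iPSC library. Those sums were 96.9 to 131 CPM in WT at day 10 and 55.2 to 71.7 CPM in KO at day 10. The part of other cells in the ESC values was not tested. Of the ligands and antagonists that rose in WT by day 10, Wnt7b (9.09 and 9.51 CPM in WT at day 10, against 19.6 in ESCs), Wnt4 (1.38 and 1.29, against 4.58), Wnt7a (1.49 and 1.29, against 2.29), Sfrp2 (2.59 and 2.39, against 25.3) and Sfrp5 (0.772 and 1.16, against 1.54) were higher in the ESC library. Dkk1 (2.20 and 2.57, against 0.398), Wnt16 (0.717 and 1.42, against 0.348) and Sfrp1 (176 and 168, against 74.3) were lower there. The ESC values of Dkk3 (14.5 and 11.6, against 13.5) and Wnt9a (10.1 and 8.28, against 8.12) were within or just under the range of the pair. Fzd10, at 40.2 and 39.9 CPM in WT at day 10, was at 12.9 CPM in the ESCs, and Wnt3 was at 0.772 and 0.582 CPM in WT at day 10 and 3.78 CPM in the ESCs.

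Other genes of the pathway were taken from a pair of lists. Their calls come from the main fit and were not checked with libraries left out or under the other settings. Of 18 tested genes of Wnt secretion and surface modulation, 3 were called higher and 2 lower in WT at day 10 against day 0, and 1 higher and 2 lower in KO against WT at day 10. Those 27.8% and 16.7% called lay under the 34.1% and 32.3% of all genes. Their median log2 fold changes were -0.10 and 0.14, against -0.03 and -0.02 over all genes tested. Porcn, the enzyme that attaches the lipid to Wnts, had 119 and 209 CPM in KO at day 0, 32.3 and 53.9 on day 2, and 40.5 and 46.9 on day 10. In WT Porcn had 166 and 229, 138 and 189, and 52.4 and 48.2 CPM on those days. It fell by day 2 in KO (log2 fold change -1.94, FDR = 0.00546) and lay below WT at that day (-1.86, FDR = 0.00453), while both genotypes were lower at day 10 than at day 0 (-1.95 in KO, FDR = 0.00284; -2.02 in WT, FDR = 0.000976). Gpc3, a surface glypican, rose in WT by day 10 (2.86, FDR = 0.00237) and was lower in KO than in WT at day 10 (-3.72, FDR = 0.00102). Notum, which removes the lipid from Wnts, rose by day 2 in WT (2.36, FDR = 0.0199) and by day 10 in KO (2.47, FDR = 0.00769). Ror1, a co-receptor for Wnt5a, was lower in KO than in WT at day 0 (-5.30, FDR = 0.00828).

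Of 22 tested cytoplasmic and nuclear components, 6 were called higher and 1 lower in WT at day 10 against day 0, and 1 higher and 5 lower in KO against WT at day 10, with medians of 0.005 and 0.15. These 31.8% and 27.3% called were likewise no more than the 34.1% and 32.3% of all genes. Btrc, the adaptor that marks β-catenin for degradation, rose in WT by day 10 (1.80, FDR = 0.000249) and was lower in KO at day 10 (-1.75, FDR = 0.000369). Tcf7l1, the repressing TCF factor of mouse pluripotent cells, was lower in KO than in WT at day 0 (-1.18, FDR = 0.00354) and rose by day 10 in both genotypes (1.77 in KO, FDR = 0.000334; 1.27 in WT, FDR = 0.000657). Csnk1e, a kinase of the pathway, was lower in KO at day 10 (-1.05, FDR = 0.00133).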

How the data were processed

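Single-end RNA sequencing of total RNA gave 13 libraries. Per the submitters' processing notes, the authors aligned reads with Bowtie2 to mm9 and quantified genes with RSEM; the versions and the annotation were not given in the sources used here. Each deposited file gives RSEM expected counts, which divide a read among the genes it matches, and TPM, the authors' length-adjusted level. Whether strand was used in counting is not stated.

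Expected counts were divided by library totals (CPM). For the tests they were rounded to whole numbers, filtered with filterByExpr and fitted in R 4.3.3 with edgeR 4.0.16 (quasi-likelihood test, TMM factors 0.922 to 1.064, 6 groups, 12 pre-iPSC libraries, 6 residual degrees of freedom). The common biological coefficient of variation was 0.266. FDR was adjusted over all 14324 genes tested. The ESC library entered no test. The alternatives were DESeq2 1.42.0, library totals as scaling, no filter, the replicate letter as a block, only the compared groups, and each library left out. A block at days 0 and 2 only, and fits with 1 letter at those days, were added as alternatives after seeing the data. Simulated data with known changes, and the common spread for every gene, were used to check the fit. They held no difference between the letters, so they cannot show how the fit deals with it.

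The members and lists were chosen with earlier results of these data known. Members are all described; from the pathway lists at most 2 called genes per list and comparison, those with the lowest FDR, were eligible to be named. Of 24 listed secretion and surface genes, 18 were tested, and of 22 cytoplasmic and nuclear genes all were. Promoter windows came from RefSeq (GRCm38.p6) and were matched by symbol. No coordinates were converted from mm9. 1 Wnt ligand gene is not reported here.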

Additional observations from a re-analysis of the deposited data

Results flagged for a closer look

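The change by day 10 differed between genotypes in 4 members, tested as the interaction of genotype and day 10 in the edgeR quasi-likelihood fit (12.6% of all genes tested were called). For Frzb the interaction was 6.84 on the log2 scale (SE 1.13, FDR = 0.00565): KO libraries had 0.312 and 0.727 CPM on day 10 and 0 and 0.0993 CPM on day 0, against 0.221 and 0.323 CPM on day 10 and 2.69 and 3.79 CPM on day 0 in WT. The KO day 0 group held 2 counts, so the size of this value depends on the prior count and is no bound. It was called with each library left out in turn, at 5.94 without KO day 0 A, 9.96 without KO day 0 B and 6.16 without KO day 10 B.

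For Fzd10 the interaction was -2.83 (SE 0.536, FDR = 0.0102): the log2 fold change of day 10 over day 0 was 0.69 in KO and 3.52 in WT. Leaving out KO day 10 A (-2.76), KO day 10 B (-2.85) or WT day 0 A (-2.60) ended the call. For Fzd9 it was -2.58 (SE 0.561, FDR = 0.0183), with changes of 0.26 in KO and 2.84 in WT, and for Wnt3 it was 3.25 (SE 0.828, FDR = 0.0349), with changes of 2.70 in KO and -0.55 in WT. The Fzd9 call was lost on leaving out each of 7 libraries (-2.72 to -2.04) and the Wnt3 call on leaving out each of 9 (2.48 to 3.496). The interaction with day 2 gave 0 calls among members with edgeR (0.195% of all genes), 8 members at an unadjusted p under 0.05, and 2 calls with DESeq2. No share of all genes is given beside the last 2 counts. Causes were not tested.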

How the results depend on the processing

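Of 71 calls of members over the 11 comparisons, 66 were kept with library totals as scaling, 70 with DESeq2, 70 without the filter on low counts, and 48 of 69 when only the compared groups were fitted, where fewer libraries estimate the spread. No call changed sign under any setting. With 1 library left out at a time, 43 calls were lost at least once and 28 never. The counts ran from 1 to 4 for WT day 2 against day 0, 7 to 13 for WT day 10 against day 2, 1 to 2 for KO day 2 against day 0, 2 to 8 for KO day 10 against day 0, 0 to 1 for KO day 10 against day 2, 2 to 7, 2 to 4 and 5 to 15 for KO against WT at days 0, 2 and 10, and 1 to 4 for the interaction with day 10.

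Differences between letters went together among the day 0 and day 2 groups (correlation across genes 0.741 to 0.812 in each pair of groups) and not with day 10 (-0.061 to 0.049). The labels name no shared batch, so the letter is no term of the design, and the blocked counts stand beside it. Genes described above as called nowhere or as missing the threshold did so in the fit without the letter. Their blocked results are not given. With a replicate block over all libraries, members called numbered 9 for WT day 2 against day 0 (4 without it), 5 for KO day 2 against day 0 (2), 2 for KO day 10 against day 2 (1), 8 for KO against WT at day 2 (4), 1 for the interaction with day 2 (0) and 9 for that with day 10 (4). With the block at days 0 and 2 only, the counts were 12, 22, 12, 16, 10, 17, 20, 8 and 15 for WT day 2 against day 0, WT day 10 against day 2, KO day 2 against day 0, KO day 10 against day 0, KO day 10 against day 2, KO against WT at days 0 and 2 and the interactions with days 2 and 10. With 1 letter at days 0 and 2 each of those groups is 1 library, assumed to vary like the other groups. With letter A alone they were 9, 19, 4, 16, 7, 7, 1 and 8, and with letter B alone 7, 19, 5, 13, 12, 15, 2 and 15, in that order without KO against WT at day 0. In KO at day 10 against day 2, letter A gave 5 higher and 2 lower and letter B 1 higher and 11 lower. With only the compared groups, 0 members were called in WT day 2 against day 0, KO day 2 against day 0, KO day 10 against day 2 and KO against WT at days 0 and 2, and 4 in KO day 10 against day 0. DESeq2 called 2 in KO day 10 against day 2, 2 in the interaction with day 2 and 10 in that with day 10. No share of all genes is given for the counts of calls in this section. They describe how the calls move with the setting and are no result about the members.

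A threshold of 5 CPM left 18 expressed members, 0.5 CPM left 33, TMM scaling 32 and the pre-iPSCs alone 31.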
